A study of Mus musculus with 12 samples.

Results

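Wnt3 and Wnt3a, which encode secreted Wnt ligands, were examined together with Ctnnb1, the TCF/LEF genes Lef1, Tcf7, Tcf7l1 and Tcf7l2, and the feedback gene Axin2. These 8 genes were listed by symbol and selected on RA differences already known from the same arrays (Lef1 lower and Wnt3 higher with RA), so their RA differences, and any count of them past a threshold, are given as a description and support nothing. Of the 8 genes, 7 had a transcript cluster of their own among the 22180 genes of the table, and Tcf7 was not analysed here. The arrays came from the mouse embryonic stem cell line E14, transduced with a control short hairpin RNA (shCT) or with a hairpin against LOXL2 (shLOXL2), a lysyl oxidase family member. Both kinds of cells were collected at day 0 without RA, read here as retinoic acid, and at day 1 with RA. The 4 groups were shCT without RA, shCT with RA, shLOXL2 without RA and shLOXL2 with RA, with 3 arrays in each and 12 in all. All groups share the E14 background and a transduced hairpin. The labels name 1 control construct and 1 construct against LOXL2 and give no clone, and no untreated group was collected at day 1, so RA and a day of culture cannot be told apart.

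In the canonical Wnt pathway, a secreted Wnt protein binds a Frizzled receptor and an Lrp co-receptor at the cell surface, which stops the breakdown of beta-catenin in the cytoplasm. Beta-catenin then enters the nucleus and binds TCF/LEF proteins, which otherwise sit on DNA with co-repressors. In mouse embryonic stem cells this pathway supports self-renewal, mainly by relieving repression by the Tcf7l1 protein, and in the embryo Wnt3 is needed to form the primitive streak.

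Each array gave log2 signals for 41345 transcript clusters, with array medians between 4.58 and 4.68. Across clusters, the correlation between 2 arrays lay between 0.939 and 0.985, and the number of arrays limits the precision. Separate cultures for the arrays of a group are not stated in the labels, so each p-value covers the spread among these samples alone, and that spread may be technical. The targeted gene checks the labels. Both clusters annotated to Loxl2 are shared with the predicted gene Gm21451, and averaged over both RA states their shLOXL2 signal was 60.0% and 65.0% of that in shCT. The log2 differences of cluster 17301634 were -0.57 without RA and -0.91 with RA, with the arrays apart in both states. Those of cluster 17301670 were -0.16 without RA, where the arrays overlapped, and -1.08 with RA, where they did not. All 7 embryonic stem cell markers lay above the median gene, with group means from 5.30 to 11.3, and 5 of 7 fibroblast markers lay below it. One axis held 49.4% of the spread within groups. The 4 arrays highest on it were replicate 3 of both shCT groups and replicate 1 of both shLOXL2 groups. Without these 4 arrays, an alternative chosen after seeing the data, 805 of the 22180 genes passed the RA threshold in shCT and 695 in shLOXL2, against 943 and 768 with all arrays.

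Of Wnt3 and Wnt3a, Wnt3 had a higher signal after RA in shCT cells, while in shLOXL2 cells its arrays with and without RA overlapped. Both ligand genes lie on mouse chromosome 11. Their promoters are shown because, of these genes, only Wnt3 had shCT arrays apart, and Wnt3a is its close relative. Other Wnt ligand genes with arrays apart are given below. The windows are the 250 bases before the annotated start, from RefSeq on GRCm38.p6, at chr11:103773925-103774174 on the plus strand for Wnt3 and chr11:59290752-59291001 on the minus strand for Wnt3a. Capitals mark CTTTG, the short core of a TCF/LEF site, searched on both strands.
Wnt3: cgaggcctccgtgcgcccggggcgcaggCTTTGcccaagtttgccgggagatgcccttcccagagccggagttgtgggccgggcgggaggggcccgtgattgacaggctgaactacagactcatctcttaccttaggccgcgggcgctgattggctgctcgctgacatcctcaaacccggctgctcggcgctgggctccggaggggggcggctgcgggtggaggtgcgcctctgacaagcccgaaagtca
Wnt3a: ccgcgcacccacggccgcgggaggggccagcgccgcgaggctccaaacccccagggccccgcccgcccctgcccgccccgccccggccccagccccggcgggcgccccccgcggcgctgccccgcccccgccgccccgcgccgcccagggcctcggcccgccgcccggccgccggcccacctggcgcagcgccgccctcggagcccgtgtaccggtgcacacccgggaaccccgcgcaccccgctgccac
The Wnt3 window holds 1 such match, at positions -222 to -218 counted from the start, and the Wnt3a window none. Of 32851 promoter windows of this length, 48.5769% hold CTTTG, so a match describes the letters and is no evidence of a site. The Wnt3a window is 87.6% G and C and the Wnt3 window 68.0%, against a median of 52.4% over all windows.

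For Wnt3 (cluster 17257157), the log2 signals in shCT were 4.19, 3.94 and 3.94 without RA and 4.71, 4.80 and 4.53 with RA. In shLOXL2 they were 3.93, 4.09 and 3.99 without RA and 4.42, 4.13 and 4.07 with RA. The 3 shCT arrays with RA were the highest of all 12, and replicate 1 of shLOXL2 with RA came next. In order of the group means, shCT with RA stood at 4.68 ± 0.135 (SD, n = 3), shLOXL2 with RA at 4.21 ± 0.187, shCT without RA at 4.03 ± 0.145 and shLOXL2 without RA at 4.005 ± 0.0784. The last 3 groups overlapped in their arrays. With RA minus without, the log2 difference was 0.65 ± 0.13 (SE of the limma fit) in shCT and 0.20 ± 0.13 in shLOXL2.

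For Wnt3a (cluster 17263388), the log2 signals in shCT were 4.67, 4.61 and 4.03 without RA and 4.79, 4.83 and 4.59 with RA. In shLOXL2 they were 4.31, 4.37 and 4.61 without RA and 4.34, 5.06 and 4.73 with RA. Arrays of all 4 groups overlapped, and replicate 3 of shCT without RA was the lowest of the 12. The RA differences were 0.30 ± 0.20 in shCT and 0.28 ± 0.20 in shLOXL2 on the log2 scale. Both ligand genes were dim, at the 32.2 and 40.2 percentile of mean signal among the genes of the table. No background level was set, so the part of these signals that is background is unknown.

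**Figure D1:**
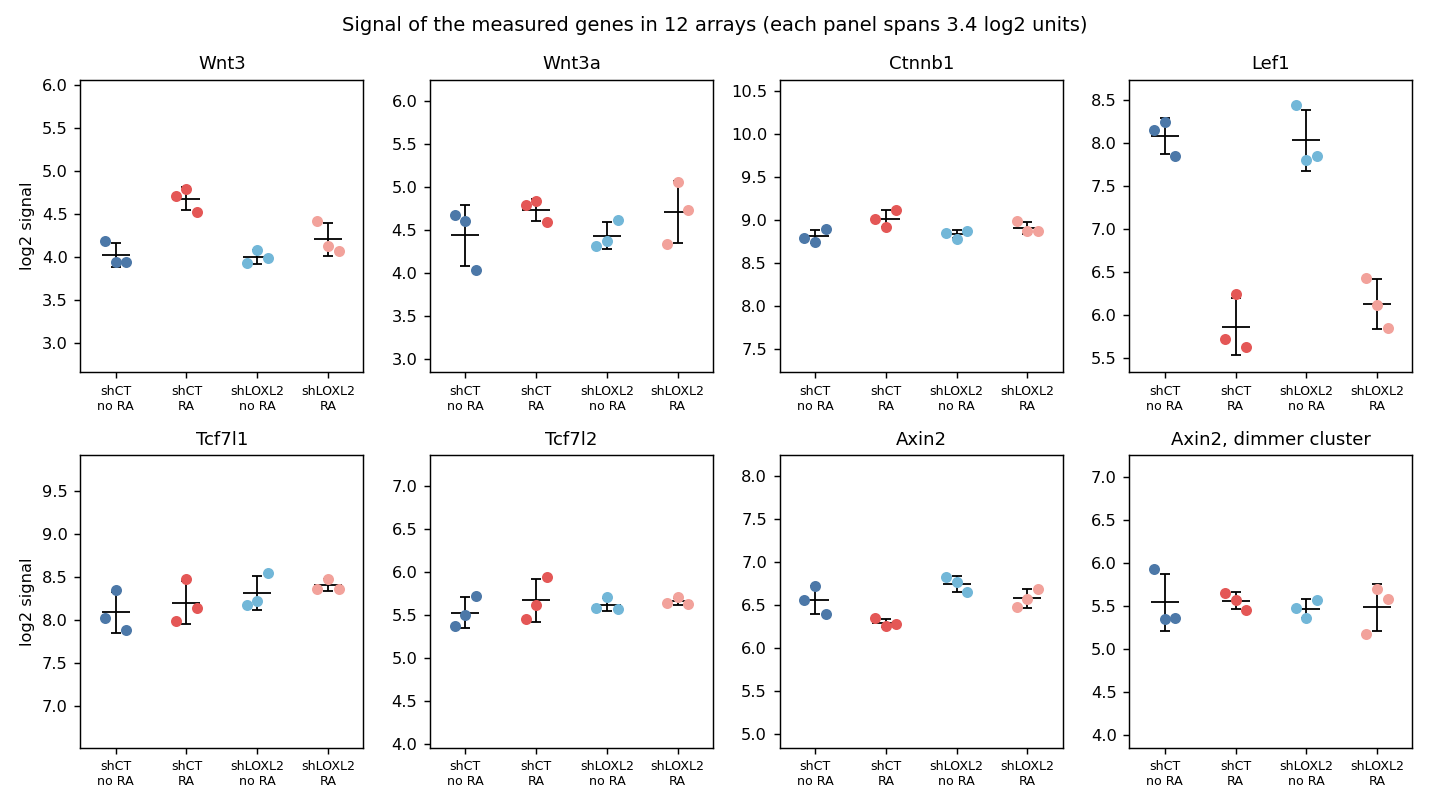
Log2 signal (y axis) of the 7 measured genes in shCT and shLOXL2 cells without and with RA (x axis). Points are the 3 arrays of a group in replicate order, the horizontal mark is the group mean and the bar 1 SD, and the last panel shows the dimmer of the 2 Axin2 clusters. Lef1 is the gene whose groups lie farthest apart, near 8 without RA (8.08 and 8.03) and near 6 with RA (5.86 and 6.13).

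Ctnnb1, which encodes beta-catenin itself, varied less between replicates than nearly every other gene. Its residual SD was 0.0739 log2 units, at the 1.30 percentile of all genes. In cluster 17523257 the log2 signals in shCT were 8.80, 8.75 and 8.90 without RA and 9.02, 8.93 and 9.12 with RA. The shLOXL2 signals were 8.86, 8.79 and 8.88 without RA and 8.99, 8.87 and 8.87 with RA. The shCT arrays with RA all lay above those without RA, by 0.20 ± 0.11 between the means, while in shLOXL2 the arrays overlapped (0.07 ± 0.11). These signals measure RNA and say nothing of the amount or place of the beta-catenin protein.

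Among the nuclear effectors, Lef1 was lower after RA in both constructs, while Tcf7l1 and Tcf7l2 showed overlapping arrays in both. Lef1 encodes a TCF/LEF factor that is itself a frequent target of the pathway. RefSeq lists 4 Lef1 starts in GRCm38.p6. The window before the first, at chr3:131110047-131110296 on the plus strand, is shown because Lef1 had the largest RA difference of the 7 genes.
Lef1: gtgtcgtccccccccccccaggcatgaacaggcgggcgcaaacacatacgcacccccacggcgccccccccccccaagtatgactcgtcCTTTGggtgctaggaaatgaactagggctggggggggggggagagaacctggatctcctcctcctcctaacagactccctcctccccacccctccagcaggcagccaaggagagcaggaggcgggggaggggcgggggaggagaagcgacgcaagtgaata
It holds 1 CTTTG match, at -161 to -157, again in capitals. The windows before Lef1 starts 2, 3 and 4, not shown, hold 2, 1 and 3 matches, and windows 1 and 2 overlap. Of all windows, 15.7% hold 2 or more matches and 3.94% hold 3 or more, and here too a match is no evidence of a site. The longer TCF/LEF core CTTTGAT, which contains CTTTG, was found on neither strand of the 14 windows of the 8 genes and is in 3.2054% of all windows. Direct repeats of AGGTCA with a gap of 5 bases, or of 2 bases, which retinoid receptors bind, are each in 0.0091% of all windows on either strand. None of the 14 windows holds one, which says only that these letters are absent there.

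In cluster 17402662, the Lef1 log2 signals in shCT were 8.16, 8.25 and 7.85 without RA and 5.71, 6.24 and 5.63 with RA. In shLOXL2 they were 8.44, 7.81 and 7.84 without RA and 6.43, 6.12 and 5.84 with RA. All 6 arrays with RA lay below all 6 arrays without RA. Without RA the group means were 8.08 ± 0.208 (SD, n = 3) for shCT and 8.03 ± 0.356 for shLOXL2. With RA they were 6.13 ± 0.290 for shLOXL2 and 5.86 ± 0.331 for shCT. Within each RA state the means of the constructs differed by less than the SD of the arrays of either construct. With RA minus without, the log2 difference was -2.22 ± 0.22 in shCT, or 21.4% of the level without RA, and -1.90 ± 0.22 in shLOXL2, or 26.8%. Lef1 was the 4th lowest of 22180 genes by this difference in shCT and the 7th lowest in shLOXL2. In RNA of whole cultures, fewer cells of a type and less RNA per cell cannot be told apart.

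Tcf7l1 (formerly Tcf3), the TCF best known as a repressor in embryonic stem cells, had log2 signals (cluster 17467806) in shCT of 8.03, 8.36 and 7.89 without RA and 7.99, 8.48 and 8.14 with RA. In shLOXL2 they were 8.18, 8.23 and 8.55 without RA and 8.37, 8.49 and 8.37 with RA. The arrays with and without RA overlapped in both constructs, with RA differences of 0.11 ± 0.16 in shCT and 0.09 ± 0.16 in shLOXL2.

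Tcf7l2 (cluster 17360501), which encodes a TCF that can activate or repress, had log2 signals in shCT of 5.37, 5.50 and 5.72 without RA and 5.46, 5.62 and 5.95 with RA. The shLOXL2 arrays gave 5.59, 5.71 and 5.57 without RA and 5.64, 5.71 and 5.63 with RA. The groups overlapped again. The RA differences were 0.14 ± 0.14 and 0.04 ± 0.14, and the latter changed sign when arrays were centred on their medians (-0.01) or quantile normalized a second time (-0.04).

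Axin2, a scaffold of the beta-catenin destruction complex and a widely used readout of canonical Wnt signalling, had 2 clusters. In the brighter, 17257801, the log2 signals in shCT were 6.56, 6.72 and 6.40 without RA and 6.35, 6.26 and 6.28 with RA. The shLOXL2 signals were 6.83, 6.77 and 6.65 without RA and 6.48, 6.57 and 6.69 with RA. The shCT arrays with RA were the lowest 3 of the 12, and in shLOXL2 the arrays overlapped. The RA difference was -0.27 ± 0.12 in shCT, or 83.0% of the level without RA, and -0.17 ± 0.12 in shLOXL2. The dimmer cluster, 17271197, did not share these differences, at 0.02 in shCT and 0.01 in shLOXL2, and its group means ran only from 5.47 to 5.56.

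Counted over the 7 measured genes, 1 rose and 1 fell past the limma threshold (adjusted p under 0.05) with RA in shCT, where 4.25% of all genes passed, 2.16% upward and 2.09% downward. These were Wnt3 and Lef1. In shLOXL2, Lef1 alone passed, against 3.46% of all genes in either direction and 1.41% downward. Arrays with and without RA did not overlap for 4 of the 7 genes in shCT, against 21.2% of all genes, and for 1 of 7 in shLOXL2, against 19.6%. Since the genes were chosen with these contrasts known, nothing is read from these counts. The shCT count was 1, with Wnt3 below the threshold, without replicate 2 of shCT without RA, or without replicate 1 or replicate 2 of shCT with RA. The median RA difference of the 7 genes was 0.14 in shCT and 0.07 in shLOXL2, beside 0.0010 and -0.01 for all genes. Centring arrays on their medians moved the median of all genes in shCT to -0.10 and the share of rises among its calls from 50.9% to 27.9%, and in shLOXL2 that share from 59.2% to 47.1%. The signs of the shCT differences of the 7 genes stayed as given, and after that centring Lef1 stood at -2.33 and Wnt3 at 0.55.

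**Figure D2:**
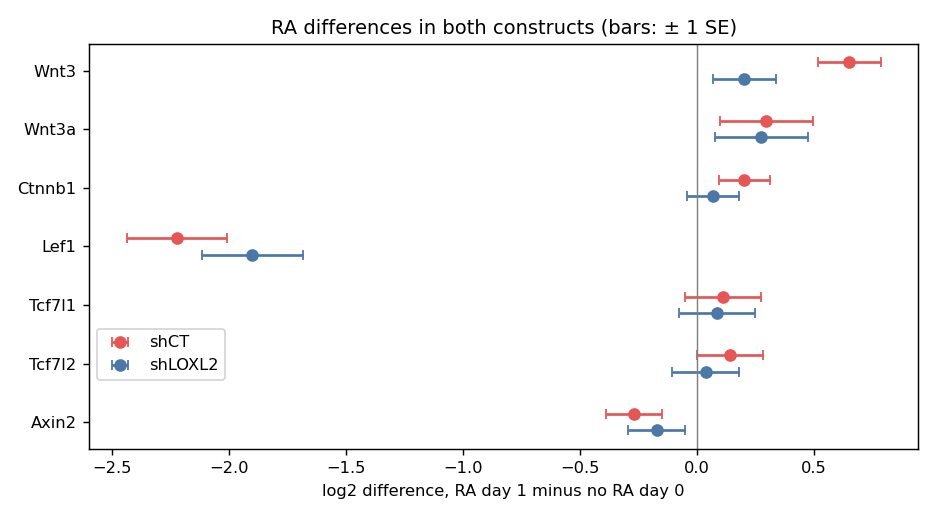
Log2 difference between RA at day 1 and no RA at day 0 (x axis) for each measured gene (y axis), in shCT and in shLOXL2 cells, with bars of 1 standard error. Lef1 lies far to the left in both constructs (-2.22 and -1.90), Wnt3 to the right in shCT (0.65), and the other differences lie between -0.27 and 0.30.

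Markers of other cell types were measured beside these genes. Of 26 markers of fibroblasts, primitive endoderm, trophectoderm, primitive streak and neural progenitors, Gata6 rose by 1.27 and Sox1 by 1.06 on the log2 scale with RA in shCT (limma adjusted p = 0.00869 and 0.0140). The summed signal of the 6 primitive endoderm markers ran from 8.46 to 9.52 (log2 of the sum) over shCT arrays without RA and from 9.11 to 9.85 with RA, and in shLOXL2 from 8.50 to 8.65 and from 9.35 to 9.61. Gata6 was the brightest of the 6 in each group and weighs most in that sum. The others differed with RA in shCT by 0.10 (Dab2) to 0.37 (Gata4), none past the threshold. In shCT, the summed signal of the 4 neural progenitor markers ran from 7.03 to 7.33 without RA and from 7.53 to 8.03 with RA. In shLOXL2 it ran from 7.03 to 7.38 and from 7.31 to 7.74. Besides Sox1, these markers differed with RA in shCT by 0.17 (Olig2) to 0.53 (Pax6), none past the threshold. The 4 primitive streak markers overlapped in shCT, from 6.81 to 7.31 and from 7.07 to 7.43, as did the 5 trophectoderm markers, from 7.36 to 7.57 and from 7.54 to 7.71. The brachyury gene was also listed as a streak marker, but its symbol was not matched and it is not in that sum. The summed embryonic stem cell signal in shCT ran from 12.53 to 12.96 without RA and from 12.30 to 12.49 with RA. Of the 7 embryonic stem cell markers, Pou5f1 fell by 0.50 and Zfp42 by 0.50 (limma adjusted p = 0.0243 and 0.0484). The others did not pass in shCT, with differences from -0.63 (Esrrb) to 0.21 (Nanog), and Nanog alone was higher with RA. The summed fibroblast signal in shCT ran from 7.28 to 7.58 without RA and from 7.28 to 7.49 with RA. The part of such cells in the differences of Lef1 and Wnt3 was not tested.

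Whether the RA difference of a gene depended on the construct was tested next, as the RA difference in shLOXL2 minus that in shCT. No gene of the 22180 passed the limma threshold (0% of all genes), and 652 genes, or 2.94%, had an unadjusted p under 0.05. Of the 7 measured genes, Wnt3 alone was among the latter. Its RA difference was lower in shLOXL2 by a log2 value of -0.45 ± 0.19 (95% interval -0.86 to -0.04, limma adjusted p = 0.9999). This value subtracts the shCT rise on which Wnt3 was selected, so its size, sign and interval are not independent of that choice. For Lef1 the difference was 0.32 ± 0.30 (95% interval -0.33 to 0.98, limma adjusted p = 0.9999). The Lef1 value too is built from the RA differences on which the gene was selected, so it is not independent of that choice. The intervals hold values up to 0.98, and the data do not show that the constructs respond alike. The other 5 genes lay between -0.13 (Ctnnb1) and 0.10 (Axin2).

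LOXL2 knockdown was then compared within each RA state. These contrasts did not serve to choose the genes, but they use the same arrays as the RA differences that did. Without RA, arrays of both constructs overlapped for each of the 7 genes, where 8.23% of all genes had arrays apart. The log2 differences, shLOXL2 minus shCT, ran from -0.05 ± 0.22 for Lef1 to 0.23 ± 0.16 for Tcf7l1, with a limma adjusted p of 0.9998 for each. No gene of the table passed the threshold (0%). Both clusters annotated to Loxl2 are shared with another gene, so they are not in the table and were not tested. At an unadjusted p under 0.05 there were 0 of the 7 genes and 1037 genes, or 4.68%, of all. The 95% intervals of the 7 genes together spanned -0.52 to 0.58.

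With RA, Wnt3 was lower and Axin2 higher in every shLOXL2 array than in every shCT array, and neither passed the threshold. These are 2 of the 7 genes, where 12.5% of all genes had arrays apart, 6.61% higher and 5.88% lower. For Wnt3 the log2 difference was -0.47 ± 0.13 (95% interval -0.76 to -0.18, limma adjusted p = 0.972), or 72.1% of shCT. That comparison is not independent of the choice of the gene, since it uses the shCT arrays with RA in which Wnt3 was noted. For Axin2 the difference was 0.29 ± 0.12 in the brighter cluster (limma adjusted p = 0.972) and -0.08 in the dimmer one. Lef1 differed by 0.27 ± 0.22 and Tcf7l1 by 0.20 ± 0.16, with overlapping arrays. Of all genes, 0% passed, and 1100 genes, or 4.96%, had an unadjusted p under 0.05.

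Averaged over both RA states, 12 genes of the table, or 0.0541%, passed the threshold for knockdown, and none of the 7 genes did. The count of 12 was 0 without any 1 of 7 arrays, which were every array of shCT with RA, and replicate 2 or replicate 3 of either shLOXL2 group. At an unadjusted p under 0.05, limma gave 2 of the 7, against 6.72% of all genes (1490). These were Axin2, at 0.24 ± 0.09 (limma adjusted p = 0.550), and Wnt3, at -0.25 ± 0.09 (limma adjusted p = 0.599), which again includes the shCT arrays with RA. The average for Axin2 was -0.07 in its dimmer cluster. Tcf7l1 stood at 0.21 ± 0.11 (limma adjusted p = 0.791). For Lef1 the average was 0.11 ± 0.15, and it was -0.19 without the 4 arrays that scored highest on the axis within groups.

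**Figure D3:**
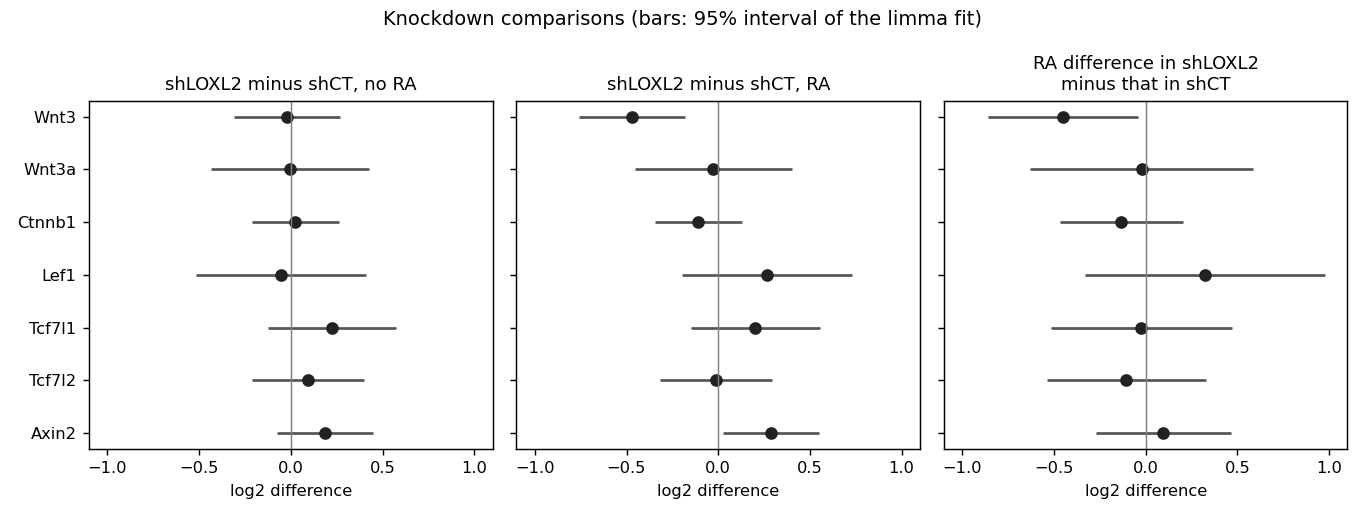
Log2 differences (x axes) of the 7 measured genes (y axis) for shLOXL2 minus shCT without RA, for shLOXL2 minus shCT with RA, and for the RA difference in shLOXL2 minus that in shCT. Points are estimates of the limma fit over 12 arrays and bars their 95% intervals before adjustment. The intervals that leave out 0 are those of Wnt3 (-0.47) and Axin2 (0.29) with RA and of Wnt3 in the last panel (-0.45), and both Wnt3 values use the shCT arrays with RA on which it was selected.

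The genes most like Lef1 and Wnt3 across the 12 arrays were found by the root mean square difference between centred log2 values, with predicted and numbered symbols left out. For Lef1 these were Foxd3, a forkhead factor of pluripotent cells (0.267), and Slc27a2, a fatty acid transporter (0.316), followed by Enox1 (0.320), the epithelial factor Grhl2 (0.324) and Ddx58, which encodes the RNA sensor RIG-I (0.327). A flat profile would differ from Lef1 by 1.06. Foxd3 was lower with RA by log2 differences of -1.86 in shCT and -1.93 in shLOXL2, close to those of Lef1. For Wnt3 the nearest were Sp8, a zinc finger factor (0.106), Jazf1 (0.116), Agap2 (0.118), Gprc5c (0.118) and Trp53inp2 (0.122), against 0.295 for a flat profile. Sp8 stood at 0.59 with RA in shCT and 0.24 in shLOXL2.

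The rest of the pathway was taken from 8 lists of genes by role, 96 genes in all, of which 93 were measured. Gsk3a and Csnk1d were only in clusters shared with other genes. The brachyury gene was listed by the symbol T, which was not matched to the table, so its signal was not examined. With RA in shCT 7 of the 93 rose and 7 fell past the limma threshold, or 15.1%, beside 4.25% of all genes. In shLOXL2 8 rose and 8 fell, or 17.2%, beside 3.46% of all genes. The lists were chosen with earlier results of these data known, so nothing about the pathway is read from these shares. The median log2 difference over the 93 genes was 0.10 in shCT and 0.03 in shLOXL2. Of the genes called, 12 passed in both constructs, which is 85.7% of the shCT calls and 75% of the shLOXL2 calls. The matching shares over all genes were not counted, so nothing particular to the pathway is read from these. With 1 array left out, from 9 to 16 genes passed in shCT and from 8 to 13 in shLOXL2. The lowest counts came without replicate 2 of shCT without RA or replicate 1 of shCT with RA (9 each), and without replicate 3 of shLOXL2 with RA (8) or replicate 2 of shLOXL2 without RA (9). Without either of those shCT arrays the calls of Lgr4, Rnf43, Tle4, Ccnd1 and Myc in shCT were lost. Without that shLOXL2 array with RA those of Fzd4, Ror2, Lgr4, Sfrp1, Pygo1, Tle4, Jup and Tnfrsf19 in shLOXL2 were lost, and without that shLOXL2 array without RA the same ones except Pygo1. No direction changed. A fit of the compared groups alone also ended the calls of Lgr4, Rnf43 and Tle4 in shCT and of Fzd4, Ror2 and Tle4 in shLOXL2, and both rescalings of the arrays ended that of Ror2. Leaving out the 4 arrays with the highest axis scores ended those same calls and that of Pygo1 in shLOXL2.

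Of the 17 other Wnt ligand genes, none passed in either construct, and their shCT differences ran from -0.37 to 0.79. Some had arrays with and without RA apart, as did 21.2% of all genes in shCT and 19.6% in shLOXL2. Wnt8a was higher in both constructs, by 0.79 and 0.70 (limma adjusted p = 0.0697 and 0.128). Wnt4 (0.48) and Wnt16 (0.23) were higher in shCT alone, and Wnt6 was lower in shLOXL2 alone (-0.40). These genes are named after their values were seen. All 3 genes of Wnt processing and release passed in both constructs. Porcn, which attaches the lipid that Wnt proteins need for secretion, had log2 signals in shCT of 7.83, 7.72 and 7.78 without RA and 8.91, 8.97 and 8.85 with RA. It rose by 1.13 ± 0.12 in shCT and 0.82 ± 0.12 in shLOXL2 (limma adjusted p = 0.000121 and 0.00184). Wls, the carrier that brings Wnt proteins to the cell surface, rose by 1.37 ± 0.25 and 1.36 ± 0.25 (adjusted p = 0.00687 and 0.00747). Notum, an enzyme that removes the Wnt lipid outside the cell and is also a target of the pathway, fell, with log2 differences of -0.88 ± 0.15 and -1.29 ± 0.15 (adjusted p = 0.00409 and 0.000252).

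Of 15 receptor genes, 1 fell in shCT, and 2 rose and 1 fell in shLOXL2. Fzd5, a Frizzled receptor, fell by 0.90 ± 0.14 and 0.85 ± 0.14 in the respective constructs (limma adjusted p = 0.00158 and 0.00265). Fzd4 rose by 0.55 and Ror2, a receptor tyrosine kinase for Wnt proteins, by 0.49 in shLOXL2, and their values in shCT were 0.34 and 0.35, below the threshold. Of 7 R-spondin and R-spondin receptor genes 1 fell in both constructs, Lgr4, at -0.68 ± 0.17 and -0.78 ± 0.17.

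Of 18 antagonist genes, 2 rose and 1 fell in shCT, and 1 rose and 2 fell in shLOXL2. Among the secreted Frizzled-related proteins, which bind Wnt proteins outside the cell, Sfrp5 rose and Sfrp4 fell. Sfrp5 had log2 signals in shCT of 4.88, 4.40 and 4.28 without RA and 5.98, 6.04 and 5.26 with RA, a rise of 1.24 ± 0.21 (limma adjusted p = 0.00429), and it rose by 1.20 in shLOXL2. Sfrp4 fell by 1.18 ± 0.17 in shCT and by 1.27 ± 0.17 in shLOXL2 (adjusted p = 0.00133 and 0.000942). Sfrp1 passed in shLOXL2 at -0.996 ± 0.21 and stood at -0.30 in shCT. Rnf43, a ubiquitin ligase that removes Frizzled receptors, is named after its values were seen. It passed in shCT at 0.61 ± 0.14 and stood at -0.06 in shLOXL2, and the difference between the constructs was -0.67 ± 0.20 (limma adjusted p = 0.9999).

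None of 14 genes of the cytoplasmic relay and destruction complex passed in either construct. Their differences lay between -0.32 and 0.34 in shCT and between -0.30 and 0.47 in shLOXL2. Of 14 nuclear cofactors, Pygo1, a coactivator of beta-catenin, rose by 1.11 ± 0.15 and 0.72 ± 0.15 in the respective constructs (limma adjusted p = 0.000751 and 0.0174). Tle4, a Groucho co-repressor that binds TCF/LEF proteins, fell by 0.55 and 0.56 (adjusted p = 0.0215 and 0.0202). No other Tle gene passed. Their differences ran from -0.09 (Tle3) to 0.85 (Tle5) in shCT and from -0.04 (Tle3) to 0.57 (Tle5) in shLOXL2, and Tle3 and Tle5 are named after their values were seen. Jup, which encodes the beta-catenin relative plakoglobin, fell by 0.77 in shLOXL2 and stood at -0.57 in shCT (adjusted p = 0.0156 and 0.0661).

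The 9 measured genes of a list of common beta-catenin targets did not move one way. In shCT 2 rose and 3 fell, and in shLOXL2 2 rose and 2 fell. Cdx1, a caudal homeobox gene known as a target of both Wnt and retinoic acid, had log2 signals in shCT of 5.32, 4.77 and 4.84 without RA and 7.26, 7.33 and 7.38 with RA. It rose by 2.35 ± 0.16 in shCT and 2.22 ± 0.16 in shLOXL2 (limma adjusted p = 2.39e-06 and 5.82e-06). Tnfrsf19 rose by 0.90 ± 0.14 and 0.73 ± 0.14, and Notum fell as given above. Ccnd1, which encodes cyclin D1, fell by 0.86 ± 0.18 and by 1.102 ± 0.18, and Myc fell by 0.79 ± 0.17 in shCT and stood at -0.65 in shLOXL2 (adjusted p = 0.0569). Ccnd1 and Myc are named after their values were seen.

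**Figure D4:**
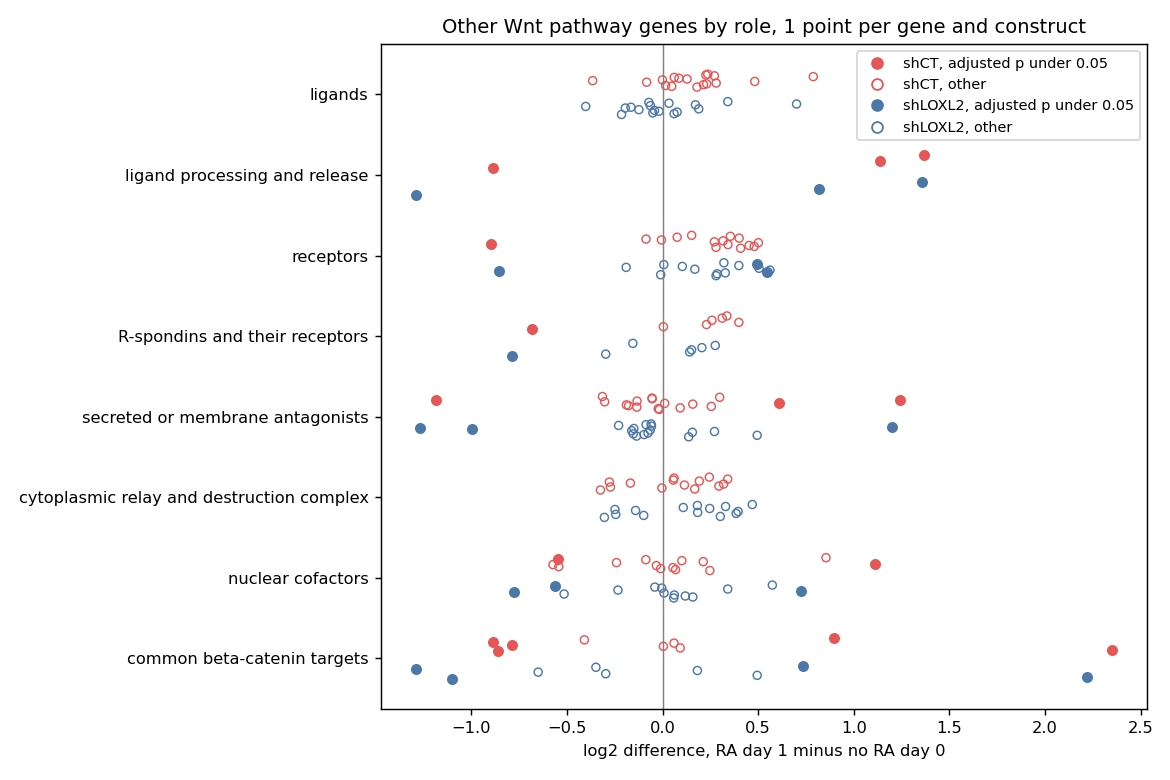
Log2 difference between RA at day 1 and no RA at day 0 (x axis) of the 93 other Wnt pathway genes by role (y axis), with shCT above shLOXL2 in each role. Each point is 1 gene, filled where the limma adjusted p was under 0.05, and Notum, Lgr5, Nkd1 and Dkk1 each stand in 2 roles. The ligand and cytoplasmic relay rows have no filled point, and Cdx1 lies farthest to the right (2.35 and 2.22).

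None of the 93 genes passed for knockdown in either RA state, for knockdown on average or for the difference between RA responses. At an unadjusted p under 0.05, limma gave 3 of the 93 without RA, 7 with RA, 8 on average and 4 for the response difference, where the shares of all genes were 4.68%, 4.96%, 6.72% and 2.94%. Nothing particular to the pathway is read from these counts. The smallest p-values without RA were those of Porcn (0.49 ± 0.12, limma adjusted p = 0.603) and Notum (0.53 ± 0.15, limma adjusted p = 0.756), named after their values were seen.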

How the data were processed

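The authors deposited a log2 signal for each transcript cluster and array. Per the submitters' processing notes, the tools were RMA, limma and R 3.1.1, whose roles and order are not given in the sources used here. The labelling used an Affymetrix whole-transcript assay, per the labels' protocols. No scanner files were used here, and normalization between arrays takes out shifts that most genes share. Clusters were named through the platform annotation: 23521 of 41345 had 1 gene, 1814 several and 16010 none, and 23328 matched the RefSeq gene table. A gene was represented by its brightest cluster of its own (1082 genes had several), which gave 22180 genes.

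The fit used limma 3.58.1 in R 4.3.3 (statmod 1.5.0), with 4 group means over 12 arrays, 1 spread per gene and Benjamini-Hochberg adjustment over all genes for each of 6 contrasts. It was also run on simulated data with independent values for each gene and array. That run cannot speak for spread that arrays share, such as the axis within groups. The genes, the role lists and the markers were chosen with earlier results of these data known. Named genes were the listed ones in every contrast, up to 3 per role with the smallest p among those past the threshold, and the 5 most alike. Alternatives were a replicate block, such a block within each construct, trend and robust moderation, leaving out genes below the median, median centring, a second quantile normalization, a mean over all clusters of a gene, a fit of the compared groups alone, the other Axin2 cluster, each array left out and a fit without 4 arrays, which was added after seeing the data. Promoter windows come from the RefSeq table for GRCm38.p6, which held all 8 genes with 14 starts.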

Additional observations from a re-analysis of the deposited data

How the results depend on the processing

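Of 694 values of the 7 genes under the alternatives, 639 kept their direction and their side of the threshold, 52 changed sign, none of them past the threshold, and 3 fell below it, all for Wnt3 with RA in shCT with 1 array left out. With genes below the median left out, 1 of the 5 remaining genes passed with RA in shCT, since both ligand genes were not tested there. With 1 array left out the count was 1 to 2 for the listed genes in shCT, and 9 to 16 in shCT and 8 to 13 in shLOXL2 for the other pathway genes. Median centring gave 0.029 for the Tcf7l1 response difference, -0.012 for Tcf7l2 with RA in shLOXL2, 0.029 for Tcf7l2 knockdown with RA, and 0.030, 0.016 and 0.00078 for the Wnt3a response difference, knockdown with RA and knockdown on average. A second quantile normalization gave -0.041 for Tcf7l2 with RA in shLOXL2, and 0.066, 0.038 and 0.0048 for those 3 Wnt3a values. The dimmer Axin2 cluster gave 0.017 and 0.015 with RA, -0.0021 for the response difference and -0.074, -0.076 and -0.075 for knockdown without RA, with RA and on average. Without the 4 arrays high on the axis, knockdown on average was -0.19 for Lef1, knockdown with RA was 0.14 for Tcf7l2 and 0.087 for Wnt3a, and the Wnt3a response difference was 0.23. The causes were not tested.

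With 1 array left out, values that changed sign ran as follows. For knockdown without RA they ran from -0.26 to 0.058 for Lef1, -0.0071 to 0.066 for Ctnnb1, -0.064 to 0.062 for Wnt3 and -0.21 to 0.11 for Wnt3a. For knockdown with RA they ran from -0.12 to 0.12 for Tcf7l2 and -0.20 to 0.16 for Wnt3a, and on average from -0.015 to 0.11 and -0.12 to 0.078. The RA difference of Tcf7l1 in shCT ran from -0.027 to 0.24, and the response differences from -0.15 to 0.12 for Tcf7l1, -0.21 to 0.032 for Tcf7l2 and -0.20 to 0.18 for Wnt3a. Of the calls of other pathway genes, 9 of 14 in shCT and 8 of 16 in shLOXL2 held under every alternative run, and none changed sign.

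The replicate numbers were checked for pairing. Deviations of same-numbered arrays from different groups correlated from -0.550 to 0.631 over 18 pairs of arrays. Of these pairs 6 exceeded 0.1, so the numbers alone do not pair the arrays. Within a construct they correlated from 0.0394 to 0.631 over 6 pairs, and 9 of 12 arrays were closest to the array of their own number in the other RA state. With the replicate block, 2 listed genes passed with RA in shCT and 1 in shLOXL2, as without it, and 12 and 15 of the other pathway genes. It ended the calls of Lgr4 and Rnf43 in shCT and of Ror2 in shLOXL2. With the block within each construct these counts were 2 and 1, and 19 and 22. In the whole table the block gave 740 and 658 genes with RA, and the block within each construct 1800 and 1624, against 943 and 768. For knockdown on average the block gave 1 gene and the block within each construct 0, against 12. For the knockdown contrasts the block within each construct was fitted as a correlation between its arrays (0.323). For the RA contrasts it was a fixed term, so these are different models.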
